A study of Drosophila melanogaster with 4 samples.

Results

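The very broad H3K4me2 domains described here are places where each of 2 replicates had an enriched region of at least 10 kb and these regions overlapped. The domains were chosen by their measured length alone. A region of the replicate 1 list was taken when it was 10 kb or longer and overlapped, by 1 bp or more, a region of replicate 2 that was also 10 kb or longer. This gave 235 domains among the 4752 enriched regions of replicate 1. Each overlapped a single such region of replicate 2, so the same 235 pairs are found from either list. Since length in both replicates chose them, lengths are given as a description, and no test was run on these lists.

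The study located H3K4me2 with ChIP-seq, the sequencing of DNA that an antibody pulls down with its target, in larvae of the third instar of Drosophila melanogaster. It had 1 condition, with 2 immunoprecipitates and 2 inputs (chromatin sequenced without antibody selection). All 4 samples were wild-type Oregon-R, a standard laboratory strain kept as Oregon-R-modENCODE, with no transgene, mutation or treatment named in the labels. Whether the replicates came from different batches of larvae is not labelled, and a spread between them may be of technical origin. The nuclei are labelled by stage and not by tissue. A domain in these lists is therefore a sum over the cell types of the larva, and an unbroken domain in 1 cell type and adjoining regions from different cell types cannot be told apart.

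H3K4me2 is histone H3 carrying a pair of methyl groups on lysine 4. In Drosophila, Set1, Trithorax and Trithorax-related methylate this lysine, and Lsd1, encoded by Su(var)3-3, removes the lower methylation states. The mark usually lies beside promoters and over enhancers of genes that are active or kept ready for activity. In mammals, unusually wide stretches of H3K4 methylation are known at genes that define a cell's identity. Positions below follow FlyBase release 5, the build of the lists, and no gene was assigned to a domain, since only a gene table of release 6 was available.

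The lists behind the domains were close in size. Replicate 1 had 4752 enriched regions over 21.2 Mb and replicate 2 had 4701 over 20.7 Mb, and 284 and 261 of them were 10 kb or longer. Of all replicate 1 regions, 95.5% overlapped some region of replicate 2, and 97.3% of those of replicate 2 overlapped some region of replicate 1. Of the 284 long ones in replicate 1, 235 (82.7%) overlapped a long one of replicate 2. The matching share was 84.7% for regions of 5 to 10 kb (878 of 1036) and 91.9% for regions of 2 to 5 kb (2716 of 2955), when both replicates had to fall in the same length class. These 878 and 2716 regions serve for comparison throughout. The lists hold no read counts, and the depth behind the calls is unknown.

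The domains were a small share of regions and a larger share of marked sequence. They made up 4.97% ± 0.0379 of the regions of a replicate and held 15.7% ± 0.114 of its enriched bases (SD, n = 2), or 3.30 Mb in replicate 1 and 3.26 Mb in replicate 2. Both replicates count the same matched domains, so these SDs are kept small by the matching. All regions of 10 kb or more, matched or not, held 18.4% of the enriched bases of replicate 1 and 17.3% of those of replicate 2. Most were only moderately above the length limit. The median length was 12.9 kb in replicate 1 and 12.6 kb in replicate 2, and the middle 50% of domains ran from 11.1 to 15.5 kb and from 11.1 to 15.3 kb. In replicate 1, 86 domains were under 12 kb, 78 had 12 to 15 kb, 51 had 15 to 20 kb and 20 had 20 kb or more. In replicate 2 these classes held 95, 77, 48 and 15. The longest was 31.5 kb in replicate 1 and 38.1 kb in replicate 2. Replicate 1 gave the longer call for 141 domains and replicate 2 for 94.

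Regions next to the limit did not stand apart from the domains in score. The 3 pairs just inside were 2R 14735999 to 14746294 (10296 and 10013 bp), 3L 11201235 to 11211264 (10030 and 12000 bp) and 3L 3140909 to 3151639 (10731 and 10039 bp), with lengths from replicates 1 and 2. The 3 pairs just outside were X 19590456 to 19600654 (10199 and 9969 bp), X 11759269 to 11769288 (10020 and 9932 bp) and 2L 6557107 to 6567033 (9927 and 9936 bp). Scores in replicate 1 were 1.78, 2.13 and 2.39 for the first 3 and 2.27, 2.00 and 2.26 for the others, in the same order. The limit thus lay within a continuous range of lengths.

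**Figure D1:**
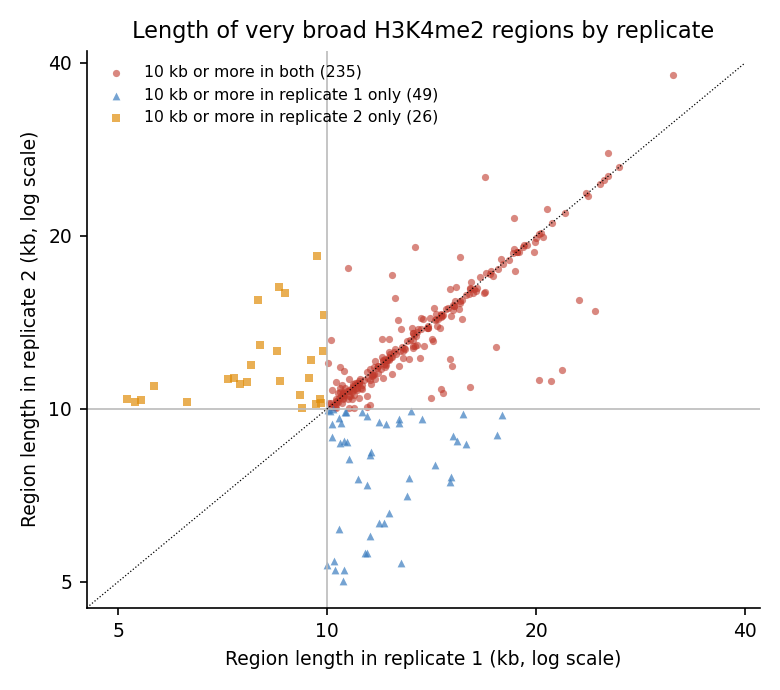
Length of each region of 10 kb or more in replicate 1 (x axis, kb, log scale) and replicate 2 (y axis, kb, log scale). Red points are the 235 domains, and for the 49 regions of replicate 1 (triangles) and the 26 of replicate 2 (squares) without a counterpart of 10 kb the other length is that of the longest overlapping region. Most domains lie on the dotted line of equal length, and a few fall far from it on either side.

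Every long region of 1 replicate was marked in the other as well, including those that did not qualify. None of the 49 unmatched long regions of replicate 1 and none of the 26 of replicate 2 was without an overlapping region in the other list. Of regions of all lengths, 95.5% in replicate 1 and 97.3% in replicate 2 had such an overlap. The long regions were thus near the general share, and a longer region meets an overlap of 1 bp more easily. In replicate 1, 15 of the 49 lay over 1 region of replicate 2, 29 over 2 regions and 5 over 3 or more. In replicate 2, 4 of the 26 lay over 1 region and 22 over 2. Unmatched long regions were thus mostly called whole in 1 replicate and in pieces in the other. The pieces together spanned 10 kb or more for 31 of the 49 and 19 of the 26. The unmarked gap between pieces had a median of 315 bp over 61 gaps, with 41 under 500 bp. The longest partner had a median length of 8713 bp for the 49 and 8498 bp for the 26, and it was 9 kb or longer for 18 and 10 of them. The longest unmatched region of replicate 1 was 3L 7326355 to 7344202 (17.8 kb), where replicate 2 had 2 regions, the longer of 9753 bp. In replicate 2 it was 3R 11086920 to 11105370 (18.5 kb), where replicate 1 had 2 regions, the longer of 9674 bp.

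Very broad domains were most frequent per Mb on X and 3R. Almost all lay on the 5 long arms, as did enriched regions in general. Of all 4752 regions of replicate 1, only 57 lay on chromosome 4 and 70 outside the arms. The long arms held 234 of the domains and 870 of the 878 regions of 5 to 10 kb. Of the 235, 65 were on 3R, 56 on X, 40 on 2R, 38 on 2L, 35 on 3L and 1 on chromosome 4. Per Mb this was 2.50 on X, 2.33 on 3R, 1.89 on 2R, 1.65 on 2L, 1.43 on 3L and 0.740 on chromosome 4. Counting all regions of 10 kb or more in each list, the density was 3.05 ± 0.0946 per Mb on X, 2.56 ± 0.0760 on 3R, 2.20 ± 0.301 on 2R, 1.83 on 2L (42 regions in each replicate), 1.73 ± 0.259 on 3L and 1.11 ± 0.523 on chromosome 4 (SD, n = 2). In these lists X exceeded every other arm in both replicates, and 3R exceeded 2L, 2R, 3L and 4. Arm 2R exceeded 2L and 3L in both replicates, while 2L and 3L changed order between them.

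Among the 6 arms, X had the most very broad domains per Mb and the fewest regions of 2 to 5 kb per Mb. It held 23.8% of the domains (exact 95% binomial interval 18.5 to 29.8), against 14.5% of the regions of 2 to 5 kb and 19.9% of those of 5 to 10 kb. Regions of 2 to 5 kb numbered 17.6 per Mb on X, 21.3 on 2L, 22.0 on 3L, 22.6 on 3R, 26.5 on 2R and 31.1 on chromosome 4. For every 100 regions of 2 to 5 kb there were 14.2 domains on X, 10.3 on 3R, 7.74 on 2L, 7.13 on 2R, 6.48 on 3L and 2.38 on chromosome 4. Arm 2R, the long arm with the most regions of 2 to 5 kb, thus ranked below X in this ratio. Of domains and regions of 2 to 5 kb together, domains were 12.4% on X (exact 95% interval 9.52 to 15.8) and 6.66% on 2R (4.80 to 8.95). The intervals were 7.28 to 11.7 on 3R, 5.13 to 9.73 on 2L and 4.28 to 8.36 on 3L. On chromosome 4, with 1 domain, the interval was 0.0589 to 12.3. These overlapped that of 2R, so the order of 2R among these arms was not resolved. Domains held 20.2% ± 0.0564 of the enriched bases on X, 18.0% ± 0.233 on 3R, 15.7% ± 0.292 on 2L, 13.2% ± 0.168 on 2R, 11.9% ± 0.0386 on 3L and 5.48% ± 0.282 on chromosome 4 (SD, n = 2). These shares differed between arms by more than the replicates did, though both replicates' shares are of the same matched domains. The interval on a share of domains covers counting error only.

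**Figure D2:**
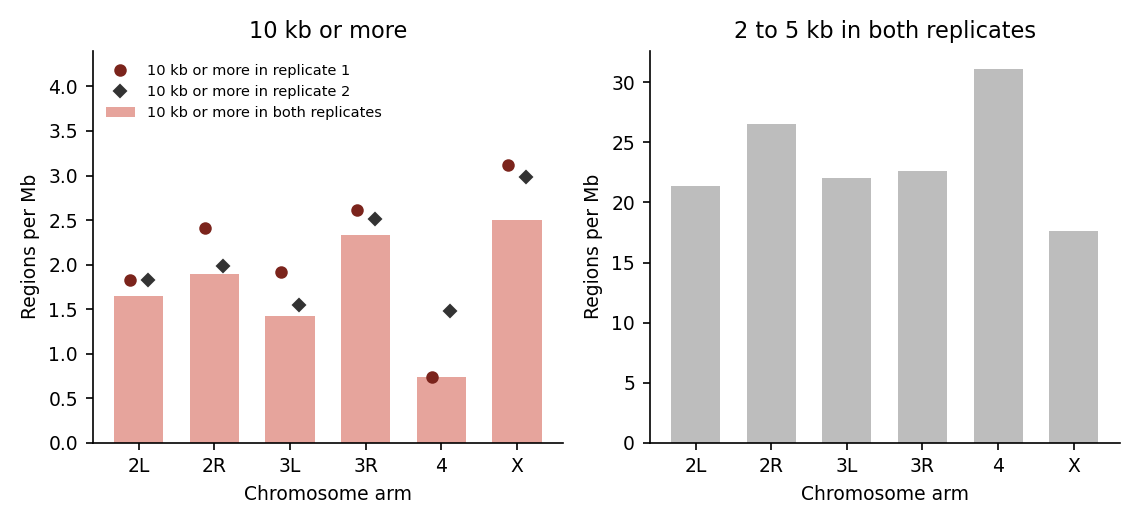
Regions per Mb on each chromosome arm, for regions of 10 kb or more (left; bars are the 235 domains matched between replicates, circles and diamonds all such regions of replicates 1 and 2) and for the 2716 matched regions of 2 to 5 kb (right). X has the tallest bar on the left, at 2.50 per Mb, and the lowest on the right, at 17.6 per Mb.

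Chromosome 4, a small chromosome packaged largely as heterochromatin, carried 1 domain beside 42 regions of 2 to 5 kb. It lay from 1044412 to 1055452 in replicate 1 (11.0 kb, score 1.84) and from 1044760 to 1055556 in replicate 2 (10.8 kb, score 1.80). No domain lay on the 8 sequences outside the arms, which are the heterochromatin scaffolds and unplaced sequence. These had 70 regions in replicate 1, and 0 of 70 allows a share of up to 4.29% (3 counts of the total, for counting error only). That limit lies just below the 4.95% of all regions of the list that were domains, so 70 regions show little about how much rarer domains are there. The longest of them reached 5228 bp in replicate 1, and 5128 bp was the maximum in replicate 2.

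Domain length and score varied little between the long arms. The median domain length in replicate 1 was 13.8 kb on 2L, 13.3 kb on X, 12.9 kb on 2R, 12.6 kb on 3R and 12.3 kb on 3L. The median score in replicate 1 ranged from 2.13 on 2R to 2.21 on 3L, and in replicate 2 from 1.92 on 3R to 1.98 on 2L. Every domain is 10 kb or longer by the rule and most lie little above that limit. The median lengths are therefore held close together, and they cannot show whether arms differ in the size of domains.

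Along the arms, the number of domains per 1 Mb ranged from none to 7. The 5 long arms gave 117 complete 1 Mb windows. Of these, 24 held no domain, 29 held 1, 25 held 2, 19 held 3, 10 held 4 and 10 held 5 or more. The median was 2. Each window had the same number in both replicates, which is largely fixed because the same matched pairs were counted in each. Every window held regions of 2 to 5 kb, between 7 and 37 of them with a median of 22. That class is far more numerous, so its lack of empty windows does not show how evenly domains were spread. The 24 windows without a domain held 484 of these shorter regions (18.7% of those in the windows). Windows without a domain, 20.5% of all, thus held nearly their proportional share of regions of 2 to 5 kb. The richest window was X 16000001 to 17000000 with 7 domains, beside 15 regions of 2 to 5 kb. Next came 2R 19000001 to 20000000, 3L 3000001 to 4000000, 3R 5000001 to 6000000 and X 11000001 to 12000000 with 6 each, beside 30, 23, 29 and 18 regions of 2 to 5 kb. Across the 117 windows the number of domains had a Spearman rho of 0.22 with the number of regions of 2 to 5 kb and of 0.32 with that of regions of 5 to 10 kb. The latter classes had a rho of 0.36 with each other. These are descriptions of 1 genome, in which all windows share a library.

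Few domains lay near the centromeric ends of the arms. The 1 Mb at that end of the 5 long arms held 3 of the 234 domains on these arms (1.28%), against 84 of 2618 regions of 2 to 5 kb (3.21%) and 8 of 870 regions of 5 to 10 kb (0.920%). The 1 Mb at the telomeric end held 17 domains (7.26%), 119 regions of 2 to 5 kb (4.55%) and 37 regions of 5 to 10 kb (4.25%). With 3 and 17 domains, these shares are imprecise.

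Domains lay closer to one another than shorter regions lay to a domain, except on 3R. From a domain on an arm, the nearest other domain was at a median of 102 kb in both replicates (order-statistic 95% interval 77.6 to 134.7 kb in replicate 1, n = 234). From regions of 2 to 5 kb the nearest domain was at a median of 172.6 kb in replicate 1 and 173.6 kb in replicate 2, and from regions of 5 to 10 kb at 147.2 and 147.0 kb. The replicates differed by under 1 kb in each of these medians. Both used the same matched regions and domains, so this closeness follows from the matching and does not measure how reproducible the spacing was. Another domain lay within 50 kb of 33.1% ± 0.302 of domains, against 30.2% of regions of 5 to 10 kb and 23.1% ± 0.0348 of regions of 2 to 5 kb (SD, n = 2, with the same count in both replicates for the middle class). The exact 95% interval for domains in replicate 1 was 27.3% to 39.8%. It treats domains as independent, though domains near each other count one another, so it cannot be used to separate the classes. At 100 kb the shares were 49.6%, 42.1% and 36.6%.

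Within arms, the 3 medians had this same order on 4 of the 5 long arms, and on 3R domains had the largest of them. The median distance to another domain was 95.6 ± 0.144 kb on 2L, against 172.6 ± 0.0262 kb from regions of 2 to 5 kb, and 87.5 ± 0.0742 against 180.6 ± 0.0163 kb on 2R. It was 104.0 ± 0.0693 against 266.9 ± 0.317 kb on 3L and 88.4 ± 0.00707 against 150.4 ± 0.0803 kb on X. On 3R it was 164.4 ± 1.89 kb from a domain and 120.8 ± 0.396 kb from regions of 2 to 5 kb (SD, n = 2 throughout). These SDs are over matched regions, and the matching keeps them small. From regions of 5 to 10 kb it was 105.0 ± 0.554 kb on 2L, 174.0 ± 0.0894 kb on 2R, 198.1 ± 0.00636 kb on 3L, 115.1 ± 0.331 kb on X and 110.9 ± 0.192 kb on 3R. The arm with the most domains was thus the one where domains were farther from one another than shorter regions were from a domain.

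**Figure D3:**
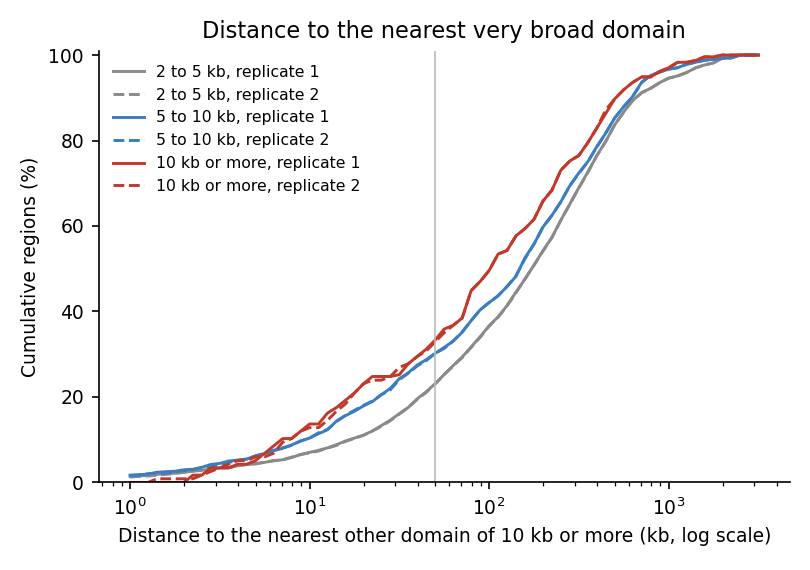
Cumulative share of regions (y axis, %) by distance to the nearest other domain of 10 kb or more (x axis, kb, log scale), for domains (red) and regions of 5 to 10 kb (blue) and 2 to 5 kb (grey) on the 6 arms, with replicates 1 and 2 as solid and dashed lines. At the vertical line, 50 kb, the curves stand at 33.1%, 30.2% and 23.1%.

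Of the domains, 33.2% belonged to a run in which neighbours were less than 50 kb apart. By the coordinates of replicate 1 there were 34 such runs with 78 domains, of which 26 were pairs and 8 had 3 or more domains, and 157 domains stood alone. X had 10 of the runs, 3R 8, 2R 7, 3L 6 and 2L 3. Runs are named here by their number of domains and then by the length those domains cover. X 15623415 to 15789134 had 4 domains in 165.7 kb, of 21.8, 13.3, 13.7 and 12.1 kb in replicate 1. In replicate 2 the first of them lay 50.7 kb from the next, so by that list the run had only the other three. Enriched regions covered 65.7% of that stretch in replicate 1 and 63.1% in replicate 2, and the replicates had 12 and 15 regions there. The run 3L 3140909 to 3228491 had 4 domains in 87.6 kb and only 1 further region, with 57.1% and 55.8% marked. Next by covered length, among runs of 3 domains, were 2R 19851401 to 19958744 (3 domains in 107.3 kb), X 8969411 to 9060088 (3 in 90.7 kb) and 3R 5333859 to 5405836 (3 in 72.0 kb), with 66.9%, 58.5% and 67.8% marked in replicate 1. In replicate 2 these 3 had 66.3%, 58.7% and 66.6% marked. Outside these 5, and chosen after its values were seen, the run 2R 17958971 to 18075527 had 3 domains in 116.6 kb, with 40.2% marked in replicate 1 and 40.7% in replicate 2.

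Other enriched regions lay close to domains. The gap from a domain to the nearest enriched region of any length had a median of 2.19 ± 0.0297 kb, against 2.51 ± 0.0141 kb for regions of 5 to 10 kb and 3.49 ± 0.133 kb for regions of 2 to 5 kb (SD, n = 2). The same matched regions were measured in both replicates, which keeps these SDs small. In replicate 1 the order-statistic 95% intervals were 1.59 to 2.70 kb, 2.28 to 2.79 kb and 3.14 to 3.61 kb. In replicate 2 they were 1.82 to 2.79 kb, 2.27 to 2.85 kb and 3.32 to 3.73 kb. Domains were thus not separated from regions of 5 to 10 kb. Gaps of under 5 kb were found at 72.1% ± 0.903, 69.0% ± 0.403 and 60.7% ± 0.803. The gap was shorter for domains than for regions of 2 to 5 kb in each of the 5 long arms, by little on 2L (3.40 ± 0.226 against 3.46 ± 0.175 kb, within the spread) and by more on X (1.70 ± 0.401 against 3.39 ± 0.0856 kb) and 3L (2.17 ± 0.00141 against 3.86 ± 0.106 kb). On the far side of the domain the next region was at a median of 12.7 ± 0.227 kb, against 13.2 ± 0.0354 and 19.1 ± 0.285 kb for the shorter classes. A gap of under 500 bp was present at 43 of the 235 domains in replicate 1 (18.3%, exact 95% interval 13.6 to 23.8) and at 29 in replicate 2 (12.3%, 8.42 to 17.2). The corresponding share was 12.8% ± 2.42 for regions of 5 to 10 kb and 10.2% ± 0.923 for those of 2 to 5 kb, so at this distance the classes could not be separated from the spread between replicates. The smallest gap at a domain measured 4 bp (replicate 1) and 6 bp (replicate 2).

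The sequence around domains was more densely marked than around regions of 2 to 5 kb, and about as densely as around regions of 5 to 10 kb. Other enriched regions covered a median of 26.5% ± 0.0177 of the 50 kb on each side of a domain, 25.4% ± 0.602 around regions of 5 to 10 kb and 20.5% ± 0.378 around regions of 2 to 5 kb (SD, n = 2). The profile had its peak near the domain. In the 2 kb next to the edge 15.4% ± 1.21 of sequence was in another region, at 4 to 6 kb 34.5% ± 0.105, and at 48 to 50 kb 24.2% ± 0.0107. For regions of 2 to 5 kb the same distances gave 9.97% ± 0.525, 27.3% ± 0.543 and 20.3% ± 0.323. On the long arms the median flank was more marked for domains than for regions of 2 to 5 kb on all 5, with 24.9% ± 0.406 against 18.3% ± 0.853 on 2L and 23.9% ± 0.312 against 21.0% ± 0.252 on 3R.

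**Figure D4:**
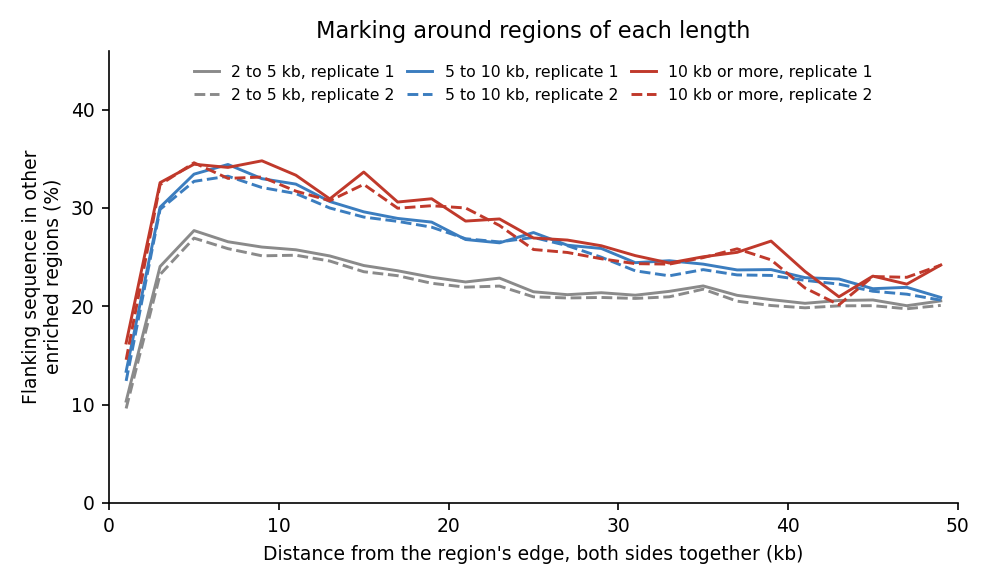
Share of flanking sequence inside other enriched regions (y axis, %) by distance from a region's edge (x axis, kb, both sides together in bins of 2 kb), for domains (red), regions of 5 to 10 kb (blue) and of 2 to 5 kb (grey) in replicates 1 (solid) and 2 (dashed). The red and blue curves rise to above 30% within 10 kb of the edge, while the grey curve stays below 30% throughout.

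A few domains stood apart from other marked sequence. The farthest from any enriched region was 3L 538139 to 554508 (16.4 kb), with its nearest neighbour at 38.0 kb in replicate 1 and 38.4 kb in replicate 2. It was followed by 3R 14847997 to 14858899 (10.9 kb; 35.1 and 34.2 kb) and X 1502441 to 1522621 (20.2 kb; 29.6 and 29.8 kb). Regions of 2 to 5 kb reached much larger distances, up to 303.7 kb in replicate 1 and 303.8 kb in replicate 2.

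The edges of domains were placed less precisely in bp than those of shorter regions, and more precisely relative to length. Over the 470 edges, replicates differed by a median of 109 bp (order-statistic 95% interval 96 to 131), against 81 bp (74 to 86) for regions of 5 to 10 kb and 55 bp (53 to 57) for regions of 2 to 5 kb. The summed difference of both edges was 2.40% of the length for domains, 3.22% for regions of 5 to 10 kb and 4.57% for regions of 2 to 5 kb (medians). Length defines the classes, so the larger divisor by itself lowers the percentage for domains. The 2 calls of a domain shared a median of 97.6% of the sequence covered by either, and 205 of the 235 (87.2%) shared 90% or more. Requiring a length of 10 kb or 2 to 5 kb in both lists limits how far edges can differ, and it does so more tightly for the shorter class. On X the median edge difference of domains was 168 bp, and on the other long arms 91.5 to 104 bp. These medians carry no interval, and shorter regions were not compared by arm. Whether the larger value on X is particular to domains was therefore not tested.

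Large differences were found mostly where 1 replicate divided a domain. An edge differed by more than 1 kb in 36 domains (15.3%, exact 95% interval 11.0 to 20.6), in 7.74% of regions of 5 to 10 kb and in 2.65% of regions of 2 to 5 kb. Of these 36 domains, 23 lay over more than 1 region in the other list. In all, 31 domains did so. The replicate 1 call lay over more than 1 region of replicate 2 at 14, and the replicate 2 call over more than 1 of replicate 1 at 18. Of these, 1 domain was counted in both, since each of its calls lay over more than 1 region of the other list. The gap between the pieces had a median of 153.5 bp over 32 gaps, and 25 of them were under 500 bp. Among the 204 domains that matched a single region in both directions, the median edge difference was 99 bp (82 to 120). Replicate 1 placed the edge farther out in 259 of the 470 edges and replicate 2 in 209, and 2 were identical.

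**Figure D5:**
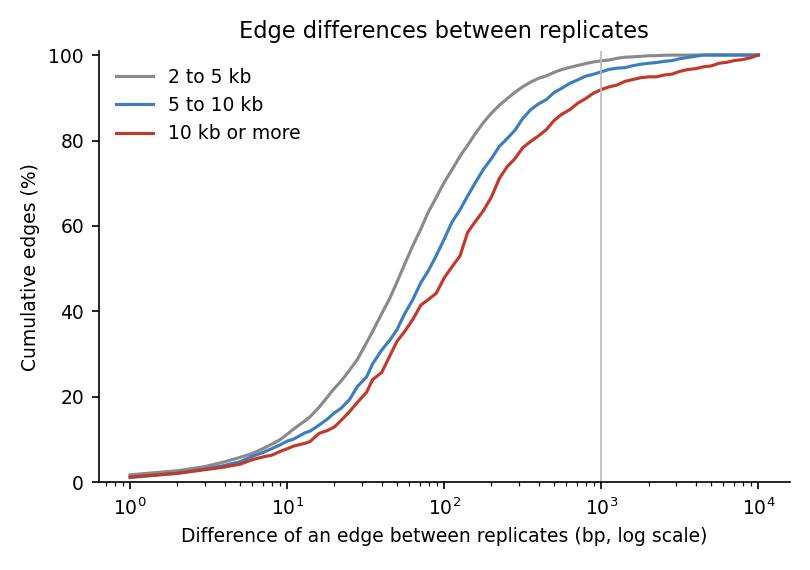
Cumulative share of edges (y axis, %) by the absolute difference between replicates (x axis, bp, log scale), for domains (red, 470 edges), regions of 5 to 10 kb (blue, 1756) and of 2 to 5 kb (grey, 5432). The red curve lies lowest, with a median of 109 bp, and 38 of its edges lie beyond the vertical line at 1000 bp.

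Individual domains ranged from nearly identical to less shared than not. In X 5558075 to 5569692, replicate 2 placed the domain at 5563276 to 5574761, so the calls shared 38.5% of the sequence covered by either and the edges differed by 10.3 kb in sum. The combined list had 1 region over both, X 5558070 to 5574845. In X 15623415 to 15645189 (21.8 kb), 3R 23770035 to 23791061 (21.0 kb), 3L 5755614 to 5775818 (20.2 kb) and 2L 6459630 to 6483970 (24.3 kb), replicate 2 had 11.7, 11.2, 11.2 and 14.8 kb of the domain as 1 region and a second region beside it. In each of these 4 the combined list again had a single region, of 21.7, 21.2, 20.6 and 24.7 kb. At the other extreme, the summed edge differences were 15 bp at 3R 12468614 to 12478928, 16 bp at 3R 20045224 to 20062392, 20 bp at 3R 11165430 to 11190440, 22 bp at 2L 9887242 to 9898338 and 24 bp at 3R 10473783 to 10486953. The domain at 3R 11165430 was 25.01 kb long in replicate 1, so close edges were not confined to domains near the length limit.

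Domains had high scores, and over the domains score and length had a low correlation. The score is the authors' own value per region, on a scale that is not stated, and it rises with length over all regions, so its height in domains is a description. The median was 2.17 in replicate 1 and 1.94 in replicate 2, against 1.99 and 1.78 for regions of 5 to 10 kb and 1.48 and 1.34 for regions of 2 to 5 kb. Of the domains, 221 in replicate 1 (94.04%) and 217 in replicate 2 (92.3%) scored above their list's median, and 85 and 83 (36.2% and 35.3%) were among the highest-scoring 10% of their list. Regions of 5 to 10 kb also scored high, with 83.1% and 83.0% above the median and 23.3% and 23.8% among the highest 10%. For regions of 2 to 5 kb these shares were 45.0% and 42.8%, and 5.45% and 4.97%. Over the 235 domains, score and length had a Spearman rho of 0.13 in replicate 1 and 0.11 in replicate 2. The rule cuts the range of lengths, which by itself can lower this rho, so it does not show that score and length are unrelated. Scores of both replicates had a rho of 0.94 and lengths of 0.87. The domains share the libraries, so these are descriptions over regions.

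The 5 domains with the highest mean score had very different lengths. They were 3R 21875991 to 21886882 (10.9 kb; scores of 2.67 and 2.51 in replicates 1 and 2), 2L 4964159 to 4984588 (20.4 kb; 2.67 and 2.44), X 7822582 to 7834669 (12.1 kb; 2.67 and 2.36), X 6178443 to 6195974 (17.5 kb; 2.61 and 2.39) and X 1751333 to 1776757 (25.4 kb; 2.68 and 2.29). Lengths here are those of replicate 1. The 5 with the lowest mean score were X 12630049 to 12640647 (10.6 kb; 1.03 and 1.06), 2L 3771298 to 3782974 (11.7 kb; 1.13 and 1.10), 3R 25606807 to 25617571 (10.8 kb; 1.28 and 1.10), 3R 18454941 to 18465801 (10.9 kb; 1.27 and 1.17) and X 3665530 to 3677346 (11.8 kb; 1.20 and 1.26). The lowest domain thus lay below the list median of 1.55 in replicate 1 and 1.43 in replicate 2, and was nonetheless called whole in both.

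The combined list had a region of 10 kb or more over every domain and added many long regions of its own. It had 364 regions of 10 kb or more, and 235 of them lay over 1 domain each, with none over 2. For 3 domains, the replicate 1 call lay over 2 regions of the combined list. A region of the combined list was longer than both replicate calls at 207 domains, by a median of 0.130 kb over the longer call at all 235. It was over 1.5 times the longer call at 6. Of the remaining 129 long combined regions, 72 coincided with a long region of 1 replicate, and 57 with none in either. Of these 57, 46 lay over 2 or more regions in at least 1 replicate, and 32 did so in both. Their median length was 10.9 kb, and the longest replicate region under them had a median of 8.61 kb.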

How the data were processed

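Per the labels' protocols, homogenised tissue was fixed with formaldehyde and sonicated chromatin was immunoprecipitated. The submitters' processing notes name Bowtie 0.12.7 as a tool. The authors deposited 3 region lists, 1 for each immunoprecipitate and 1 combined list, with 1 score per region on an unstated scale. Coordinates follow FlyBase release 5, per the file headers. The caller, its threshold and its joining and length limits are unstated in the labels and headers, and joining rules and depth can both set region lengths. Inputs enter only through the authors' calls.

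From these lists, lengths, gaps, overlaps (1 bp or more) and edge differences were computed with both ends of a region included. A region in a window was placed by its midpoint, and flanks were cut at sequence ends. Values per replicate used that replicate's own coordinates. Share intervals are exact binomial and median intervals come from order statistics; both treat neighbouring regions as independent and cover counting error only. Medians of distances and flanks are over the 6 arms. The centromere was taken at the high end of 2L, 3L and X and the low end of 2R and 3R. Code was tested on simulated lists. Domains, classes and named regions (highest and lowest scores, largest and smallest edge differences, longest runs, most isolated, nearest the limit) were chosen with earlier results of these data known. No test was run. Depleted regions were left out. Tools were Python 3.11.15 with scipy 1.17.1, numpy 2.4.6, matplotlib 3.10.9 and pandas 2.3.3.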

Additional observations from a re-analysis of the deposited data

How the results depend on the processing

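The share of X changed little under all 10 alternatives: its part of domains stayed between 22.2% and 26.1%, and exceeded its share of regions of 2 to 5 kb by 7.67 to 11.9 percentage points (9.30 in the report), a contrast added after seeing the data. The median edge difference stayed between 103.5 and 109 bp under its 7 alternatives. Starting from replicate 2 gives the same pairs by construction, and neither that nor a reciprocal overlap of 50% changed any value taken on domains alone. Counts follow the limit: at 8 kb there were 434 domains with 24.4% of marked sequence, 49.8% within 50 kb of another and a nearest region at 2.29 kb, and at 12 kb 134 with 10.2%, 16.4% and 1.88 kb. In the combined list the same values were 364, 22.4%, 40.9% and 1.96 kb. With the higher-scoring 50% of regions the share of sequence was 22.2%, the share within 50 kb 31.9% and the nearest region 3.91 kb, and with regions under 500 bp apart joined they were 20.9%, 37.1% and 2.87 kb, with 303 domains. On the 6 arms alone the share of sequence was 15.8%. Without one of the replicates there were 261 to 284 domains, with 17.3% to 18.4% of sequence, 34.5% to 36.4% within 50 kb and a nearest region at 2.21 to 2.26 kb. Within 100 kb lay 49.6%, and the farther neighbour was at 12.7 kb. The median distance to a domain was 1.70 times as long from regions of 2 to 5 kb as from domains. It was 1.67 times at 8 kb, 1.28 times at 12 kb, 1.58 times with higher scores, 1.64 times with joining, 1.41 times in the combined list and 1.63 to 1.66 times without a replicate, so its direction did not change under these alternatives, added after seeing the data. No paired analysis was possible because no file of the inputs was used, which leaves 1 group. Edge differences need both replicates and have no value without one or in the combined list. Depth is unknown, so its part in these differences was not tested.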
